A study of Homo sapiens with 4 samples.

Results

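The genes described here encode the chains of the collagens, the trimeric proteins that build much of the extracellular matrix. They were chosen by a rule on names, as the protein-coding genes whose symbol is COL, a number, A and a number. The rule was set with earlier results of these data known. The rule found 43 genes of 64252 gene IDs in the count table, and 1 gene is left out by the rule. RNA was sequenced from SK-N-BE(2), an established human neuroblastoma line. Cells transfected with a scramble short hairpin (shScb) were the control, and cells transfected with a hairpin against TTC8 (shTTC8, labelled as a knockdown) were compared with them, with 2 libraries in each group. TTC8 encodes a subunit of the BBSome, a complex that moves membrane proteins through the primary cilium. The labels name neither the hairpin sequence nor another hairpin, and nothing in them says whether both libraries of each group were grown as separate cultures. The p-values below therefore measure the spread between these libraries, which may be technical.

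Collagen chains wind around each other in triple helices, and many are secreted as procollagens that are hydroxylated, folded, trimmed and cross-linked on their way into the matrix. Fibrillar collagens form the cable-like fibrils of connective tissue, type IV collagen forms the sheet of basement membranes, and type VI collagen forms beaded filaments that link cells to the surrounding matrix. The FACIT collagens, short for fibril-associated collagens with interrupted triple helices, sit on the surface of fibrils, and transmembrane collagens stay anchored in the cell membrane. In neuroblastoma, matrix collagen is produced mainly by stromal cells, and tumour cells in a mesenchymal state also make it.

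Promoter sequences from RefSeq (GRCh38.p14) matched 31 of the 43 genes. The interval between COL4A1 and COL4A2 is shown because these chain genes start back to back and both fell. COL6A2, the most abundant chain per kilobase in shScb, which fell, and COL9A2, the abundant chain that rose, are shown by the 250 bases before their RefSeq start. The COL4A1 to COL4A2 interval (chr13:110307158-110307283, 126 bases) is written on the plus strand, so that COL4A2 starts to its right and COL4A1 to its left. COL6A2 (chr21:46097862-46098111) is on the plus strand and COL9A2 (chr1:40317287-40317536) on the minus strand, each written 5′ to 3′ toward its gene. GENCODE 29 holds transcripts that start upstream of the RefSeq starts of these genes, so these windows follow RefSeq alone. Capitals mark the GC box GGGCGG, the TATA box TATAAA and the CCAAT box CCAAT, searched on both strands with overlapping matches counted.
COL4A1 to COL4A2: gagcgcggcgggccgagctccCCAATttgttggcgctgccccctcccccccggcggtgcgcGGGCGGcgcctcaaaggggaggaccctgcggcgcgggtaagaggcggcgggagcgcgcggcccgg
COL6A2: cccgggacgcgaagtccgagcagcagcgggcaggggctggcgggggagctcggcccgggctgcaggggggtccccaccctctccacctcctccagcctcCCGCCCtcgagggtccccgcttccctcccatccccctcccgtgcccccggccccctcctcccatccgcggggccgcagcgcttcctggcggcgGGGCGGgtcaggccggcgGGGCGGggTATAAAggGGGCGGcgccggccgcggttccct
COL9A2: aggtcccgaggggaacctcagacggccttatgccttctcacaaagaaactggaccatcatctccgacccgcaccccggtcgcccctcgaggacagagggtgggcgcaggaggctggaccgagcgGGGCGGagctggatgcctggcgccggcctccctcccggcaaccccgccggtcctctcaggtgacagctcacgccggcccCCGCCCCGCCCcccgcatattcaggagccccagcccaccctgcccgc

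The COL4A1 to COL4A2 interval held 1 CCAAT box and 1 GC box and no TATA box. COL6A2 held 4 GC boxes and a TATA box whose first base lies 32 bases before the start. COL9A2 held 3 GC boxes, of which 2 share a base, and neither of the other motifs. Over the 250-base windows of 27302 promoters, 42.3% held a GC box, 11.1% a TATA box and 33.0% a CCAAT box. Among the 31 matched collagen genes these shares were 54.8%, 16.1% and 29.03%. The E-box CACGTG, the core of the sites that MYC-family proteins bind, was in 6.49% of promoters and in 0 of the 31. These are matches of letters and do not show that a factor binds there.

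The targeted gene was read first: TTC8 counted 9888 and 10398 in shScb against 1130 and 1268 in shTTC8, so the libraries matched their labels. Differences below are log2 changes of shTTC8 over shScb, fitted by edgeR. Total counts were 51168727 and 55331449 in shScb and 38284663 and 40863047 in shTTC8, which is deep enough to count chains at well under 1 CPM, the counts per 1000000 of a library's scaled total. HAND2, a marker of sympathetic neuroblastoma cells, was abundant at 948 ± 58.3 CPM in shScb and 988 ± 42.9 in shTTC8 (SD, n = 2); 24.1% of HAND2's exonic bases lie under its antisense gene. Of 8 fibroblast markers 7 were tested, 5 were called lower, 1 was called higher and FBLN1 was not called. Of the tested markers 85.7% were called, against 31.9% of all genes and 39.2% of protein-coding genes tested. The summed level of the 8 markers was 993 and 995 CPM in shScb against 741 and 713 in shTTC8. Among them DCN and LUM stood at 33.8 and 185 CPM in shScb against 3.50 and 29.9 in shTTC8, whereas FAP had 0 counts in 3 libraries and 2 in the other. THY1, named after its value was seen, had the higher call at a log2 change of 0.19 (adjusted p = 0.0184 by edgeR; 0.00575 to 0.199 over the 11 alternatives), a call lost without shTTC8 replicate 1 or 2 and with no low-count filter. Endothelial markers summed to 4.11 and 3.07 CPM in shScb and 1.78 and 1.79 in shTTC8, with PECAM1 at 0 in all 4 libraries. Of these 7 markers 3 were tested and 2, VWF and EMCN, were called lower. That is 66.7% called, against 31.9% of all genes and 39.2% of protein-coding genes tested. Of 8 Schwann cell and glial markers, 4 were tested and none was called. The part of other cell types in the results below was not tested. In a bulk sample fewer cells of a type and less RNA per cell cannot be told apart.

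Collagen chain transcripts were lower in shTTC8 for every type VI chain tested, for both abundant type IV chains, for COL1A1 and COL3A1, for COL22A1 and for both transmembrane chains tested, while COL9A2 and COL19A1 were higher. Of the 43 genes, 25 passed the low-count filter and were tested, and 22 of these reached the filter's level in both libraries of both groups. COL27A1 and COL28A1 reached it in both shScb libraries only, and COL4A4 in both libraries of neither group. By edgeR's quasi-likelihood test with Benjamini-Hochberg adjustment over 19610 genes at 0.05, 11 chains fell, 2 rose and 12 were not called. Called genes made up 31.9% of all genes tested (16.7% lower, 15.2% higher) and 39.2% of protein-coding genes tested (20.6% lower, 18.6% higher), against 52.0% of the tested collagen genes (44.0% lower, 8% higher). The median log2 fold change was -0.42 over the 25 tested chains and 0.004 over all genes tested. Of the 25 tested chains 6 were called and at least 2-fold lower, as were 2.91% of all genes tested. Libraries of the groups did not overlap for 19 of the 25 chains (76.0%), against 65.5% of all tested genes.

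The summed level of the 43 genes was 342 and 368 CPM in shScb and 261 and 265 CPM in shTTC8. The mean fell from 355 ± 18.3 to 263 ± 2.27 CPM (SD, n = 2), a ratio of 0.740. The makeup of this sum differed as well. Type VI chains gave 41.6% ± 0.237 of it in shScb and 32.4% ± 0.680 in shTTC8, and COL9A2 alone gave 11.2% ± 0.354 and 27.8% ± 0.230. Per kilobase of the principal GENCODE 29 transcript, the most abundant chains in shScb were COL6A2 (19.6 ± 1.40 CPM per kb), COL6A1 (16.4 ± 0.696) and COL9A2 (13.95 ± 1.16), followed by COL23A1 (8.73 ± 0.693), COL22A1 (5.55 ± 0.321) and COL5A1 (3.75 ± 0.191). In shTTC8 COL9A2 came first at 25.6 ± 0.432 CPM per kb, ahead of COL6A1 at 12.2 ± 0.567 and COL6A2 at 8.80 ± 0.388. With the length of all exonic bases instead, COL6A1 (12.99 CPM per kb) and COL6A2 (12.6) changed places in shScb, so their order there depends on the length used.

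**Figure D1:**
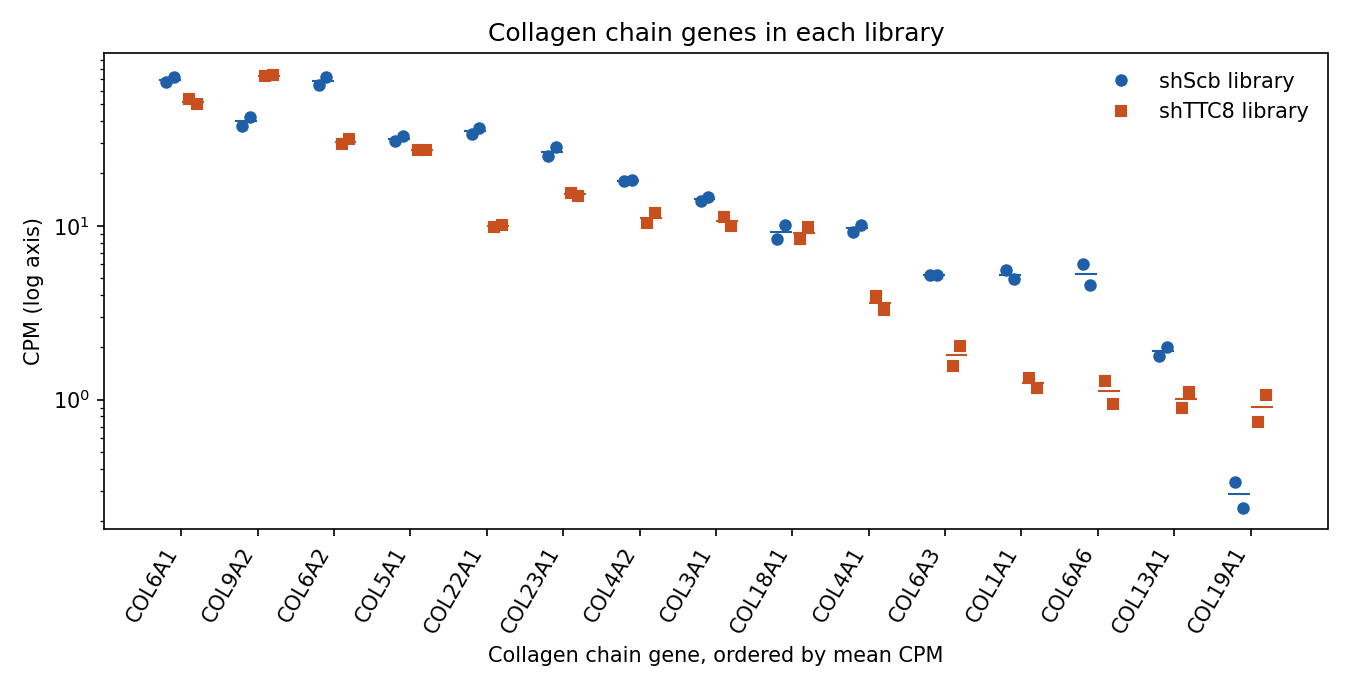
CPM on a log axis of the 15 collagen chain genes that had a mean of at least 5 CPM or were called, with 1 point per library (blue circles shScb, orange squares shTTC8) and a line at each group's mean of 2. COL9A2 and COL19A1 are the genes whose shTTC8 libraries lie above both shScb libraries; for COL18A1 the groups overlap, and for the other 12 both shTTC8 libraries lie below both shScb libraries.

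Type VI collagen is assembled from chains encoded by COL6A1 and COL6A2, neighbours on chromosome 21, with a further chain, most often that of COL6A3. COL6A1 (ENSG00000142156, 45981737 to 46005050, GRCh38) stood at 67.3 and 71.5 CPM in shScb and at 53.6 and 50.2 CPM in shTTC8. All values of shTTC8 lay below those of shScb, and COL6A1 fell by 0.42 on the log2 scale (SE 0.07, adjusted p = 3.95e-04 by edgeR). COL6A2 (ENSG00000142173, chromosome 21, 46098097 to 46132849), with the TATA-box promoter printed above, had 64.5 and 71.4 CPM in shScb and 29.5 and 31.4 CPM in shTTC8. It fell to less than 50% of its shScb level in either shTTC8 library (log2 change -1.16 ± 0.08 SE, adjusted p = 8.94e-08 by edgeR). The log2 ratio of COL6A1 to COL6A2 within a library was 0.06 and 0.003 in shScb and 0.86 and 0.68 in shTTC8. The pair was thus near equal in CPM in the controls and unequal in the knockdown libraries.

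COL6A3 (ENSG00000163359, chromosome 2, 237324003 to 237414375) encodes the largest of the classical type VI chains. It had 5.18 and 5.23 CPM in shScb and 1.57 and 2.03 CPM in shTTC8, a log2 change of -1.53 (SE 0.21, adjusted p = 6.91e-05 by edgeR). Its level per kilobase was 0.484 ± 0.00276 CPM in shScb, far under those of COL6A1 and COL6A2. The log2 ratio of COL6A1 to COL6A3 went from 3.70 and 3.77 in shScb to 5.09 and 4.63 in shTTC8. COL6A6 (ENSG00000206384, chromosome 3, 130560334 to 130678155), an alternative to the COL6A3 chain, had 6.01 and 4.58 CPM in shScb and 1.29 and 0.942 in shTTC8. Its log2 change of -2.25 (SE 0.25, adjusted p = 7.45e-06 by edgeR) was the most negative of the 25 tested chains. Its neighbour COL6A5, which lies 75489 bases away, had at most 5 counts in a library and was not tested. The summed type VI level was 143 and 153 CPM in shScb against 86.0 and 84.6 CPM in shTTC8.

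The main basement membrane chains are encoded by COL4A1 and COL4A2, which join in a trimer with more of the former's chain. COL4A1 (ENSG00000187498, chromosome 13, 110148963 to 110307233) had 9.26 and 10.1 CPM in shScb and 3.96 and 3.26 CPM in shTTC8. It fell 2.69-fold (log2 change -1.42 ± 0.16 SE, adjusted p = 1.12e-05 by edgeR). COL4A2 (ENSG00000134871, chromosome 13, 110305812 to 110513209) had 18.1 and 18.3 CPM in shScb and 10.3 and 11.8 CPM in shTTC8. It fell 1.64-fold (log2 change -0.71 ± 0.11 SE, adjusted p = 1.67e-04 by edgeR). The genes share the short promoter interval printed above, and both had lower values in each shTTC8 library than in either shScb library. The log2 ratio of COL4A1 to COL4A2 nevertheless moved from -0.97 and -0.85 in shScb to -1.38 and -1.86 in shTTC8. Of the other type IV chains, which belong to the basement membranes of specialised epithelia, COL4A4 had 5 to 14 counts and was not called. COL4A3 had 8 counts in 1 shScb library and 0 elsewhere, COL4A5 had 3 counts in 1 shScb library, and COL4A6 had 0 in each library. A count of 0 allows up to 3 counts in a library, which covers counting error only.

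**Figure D2:**
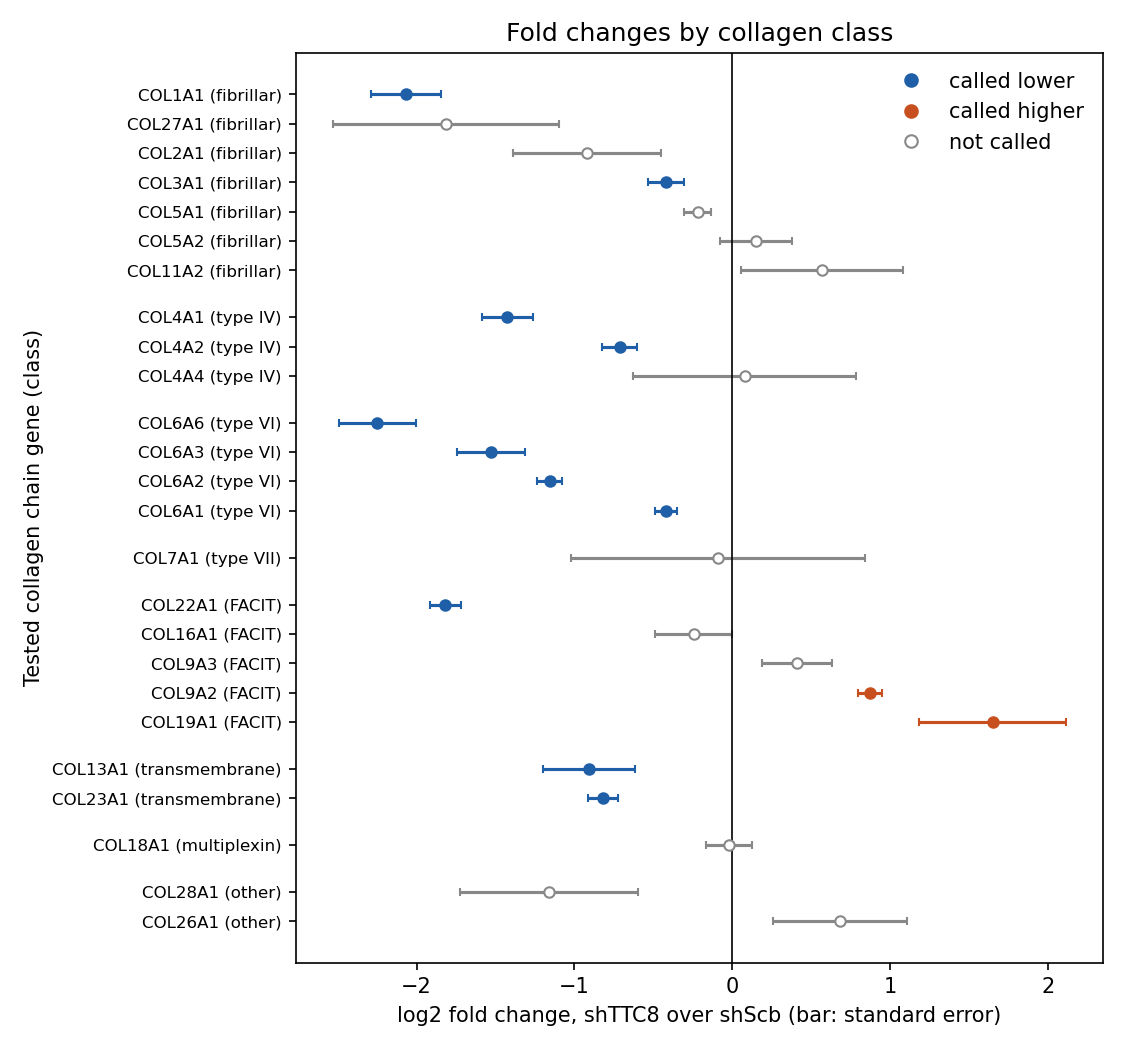
Log2 fold change of shTTC8 over shScb with its standard error for the 25 tested collagen chain genes, grouped by class. Filled blue points were called lower, filled orange points were called higher and open grey points were not called; the 4 type VI chains all lie below 0, from -2.25 to -0.42.

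Of the 11 fibrillar genes 7 were tested, 2 fell and none rose. That is 28.6% called, near the 31.9% of all genes tested and under the 39.2% of protein-coding genes tested. COL1A1 (ENSG00000108821, chromosome 17, 50183289 to 50201632), which encodes the major chain of type I collagen, the main protein of bone and tendon, had 5.56 and 4.93 CPM in shScb and 1.34 and 1.16 CPM in shTTC8. It fell 4.19-fold (log2 change -2.07 ± 0.22 SE, adjusted p = 5.82e-06 by edgeR). COL1A2, which encodes the partner chain of type I collagen, had 7 and 5 counts in shScb and 0 in both shTTC8 libraries and was too low to test. Type I collagen transcripts in these cells were therefore almost only those of COL1A1, which had 281 and 268 counts in shScb.

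COL3A1 (ENSG00000168542, chromosome 2, 188974320 to 189012746), the chain of type III collagen of elastic tissues, had 13.9 and 14.6 CPM in shScb and 11.3 and 10.002 CPM in shTTC8. It fell by 0.42 on the log2 scale (SE 0.12, adjusted p = 0.0120 by edgeR). Without shTTC8 replicate 2 that call was lost (edgeR adjusted p = 0.126; 0.00528 to 0.126 over the 11 alternatives). COL5A1 (ENSG00000130635, chromosome 9, 134641774 to 134844843), whose type V chain helps set fibril diameter, was the most abundant fibrillar gene, at 30.6 and 32.9 CPM in shScb and 27.2 and 27.4 CPM in shTTC8. The groups did not overlap, but the difference missed the threshold (log2 change -0.22 ± 0.09 SE, adjusted p = 0.0649 by edgeR), and passed it without shScb replicate 1 (edgeR adjusted p = 0.0217; 0.0217 to 0.245 over the 11 alternatives). COL5A2, the partner chain of type V, lies 19149 bases from COL3A1 on the opposite strand. It had 2.77 and 2.35 CPM in shScb and 2.78 and 2.90 in shTTC8 and was not called (log2 change 0.15 ± 0.23 SE, adjusted p = 0.669 by edgeR). The log2 ratio of COL3A1 to COL5A2 was 2.33 and 2.63 in shScb and 2.02 and 1.79 in shTTC8, and that of COL5A1 to COL5A2 was 3.47 and 3.80 against 3.29 and 3.24.

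The remaining tested fibrillar genes were scarce. COL27A1 had 82 and 120 counts in shScb and 36 and 7 in shTTC8, so the shTTC8 libraries differed widely from each other (log2 change -1.82 ± 0.71 SE, adjusted p = 0.131 by edgeR). It passed the threshold in DESeq2 (adjusted p = 0.0193), with the replicate number as a block (edgeR adjusted p = 0.0227), without shScb replicate 1 (edgeR adjusted p = 3.32e-05) and, at a log2 change of -3.48, without shTTC8 replicate 1 (edgeR adjusted p = 1.96e-05; up to 0.149 over the 11 alternatives). COL2A1, the cartilage collagen, had 35 and 32 counts in shScb and 14 and 13 in shTTC8, with no overlap in CPM and no call (log2 change -0.92 ± 0.47 SE, adjusted p = 0.157 by edgeR). COL11A2, another cartilage chain, had 17 and 23 counts in shScb and 30 and 15 in shTTC8. COL11A1, COL24A1 and COL5A3 had at most 4 counts in a library.

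The FACIT class held both directions. COL9A2 (ENSG00000049089, chromosome 1, 40300487 to 40317813) encodes a type IX chain, which coats cartilage fibrils. It had 37.6 and 42.3 CPM in shScb and 72.3 and 74.1 CPM in shTTC8, so each shTTC8 library lay above each shScb library. It rose by 0.87 on the log2 scale (SE 0.08, adjusted p = 8.19e-07 by edgeR). Type IX collagen is made of a chain from each of COL9A1, COL9A2 and COL9A3, and these were far from equal. COL9A1 had 4 and 4 counts in shScb and 6 and 10 in shTTC8 and was not tested. COL9A3 had 2.43 and 3.51 CPM in shScb and 3.71 and 4.20 in shTTC8 (log2 change 0.41 ± 0.22 SE, adjusted p = 0.189 by edgeR); without shScb replicate 2 it was 0.70 (edgeR adjusted p = 0.0396; up to 0.698 over the 11 alternatives). COL9A3 shares 45 exonic bases with TCFL5, a gene with 603% of its counts. The log2 ratio of COL9A2 to COL9A3 was 3.95 and 3.59 in shScb and 4.29 and 4.14 in shTTC8.

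COL22A1 (ENSG00000169436, chromosome 8, 138588235 to 138914006), a collagen known from tissue junctions such as those of muscle and tendon, moved the other way. It had 33.8 and 36.6 CPM in shScb and 9.86 and 10.1 CPM in shTTC8. It fell 3.52-fold (log2 change -1.82 ± 0.10 SE, adjusted p = 7.24e-09 by edgeR), the smallest p of the 25 tested chains, and its share of collagen CPM went from 9.90% ± 0.0617 to 3.80% ± 0.0376. COL19A1 (ENSG00000082293, chromosome 6, 69866571 to 70209976) was scarce, with 17 and 13 counts in shScb and 29 and 44 in shTTC8. It rose by 1.65 on the log2 scale (SE 0.46, adjusted p = 0.0133 by edgeR). The call was lost without shScb replicate 2 (edgeR adjusted p = 0.0529), without shTTC8 replicate 2 (edgeR adjusted p = 0.120) and in DESeq2 (adjusted p = 0.0782), with a range from 0.00717 to 0.120 over 10 alternatives. COL19A1 shares 70 exonic bases with LMBRD1, whose counts were 4060% of its own, so its counts are uncertain. COL16A1 had 3.09 and 2.96 CPM in shScb and 2.03 and 3.07 in shTTC8, with overlapping groups and no call (log2 change -0.24 ± 0.24 SE, adjusted p = 0.498 by edgeR). COL12A1, COL14A1, COL20A1 and COL21A1 had at most 10 counts in a library.

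Transmembrane collagens are single-pass proteins whose ectodomains can be shed. COL23A1 (ENSG00000050767, chromosome 5, 178237618 to 178590555) had 25.2 and 28.2 CPM in shScb and 15.4 and 14.9 CPM in shTTC8. It fell 1.76-fold (log2 change -0.82 ± 0.10 SE, adjusted p = 1.60e-05 by edgeR). COL13A1 (ENSG00000197467, chromosome 10, 69801867 to 69964275), whose protein acts at the neuromuscular junction, had 1.78 and 2.01 CPM in shScb and 0.901 and 1.11 in shTTC8. It fell by 0.91 on the log2 scale (SE 0.29, adjusted p = 0.0267 by edgeR), a call lost without shScb replicate 2 (edgeR adjusted p = 0.0965), without shTTC8 replicate 1 (edgeR adjusted p = 0.148) and in DESeq2 (adjusted p = 0.129), with a range from 0.0169 to 0.148 over the 11 alternatives. COL17A1, of the hemidesmosome, had no count and COL25A1 had 2 counts in 1 shTTC8 library.

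COL18A1 (ENSG00000182871, chromosome 21, 45405137 to 45513720) encodes a basement membrane proteoglycan whose C-terminal fragment is endostatin. It had 8.37 and 10.1 CPM in shScb and 8.37 and 9.83 CPM in shTTC8. The groups overlapped and it was not called (log2 change -0.02 ± 0.14 SE, adjusted p = 0.936 by edgeR). It is uncertain, because 16.4% of its exonic bases are shared with SLC19A1 on the other strand, which had 446% of its counts. COL18A1 lies on the same chromosome as COL6A1, 468016 bases away. COL7A1, the anchoring fibril chain of skin, had 85 and 30 counts in shScb and 17 and 68 in shTTC8, which is wider within the groups than between them. COL26A1 had 26 and 69 counts in shScb and 69 and 46 in shTTC8; its log2 change of 0.69 (SE 0.42, adjusted p = 0.259 by edgeR) was 1.48 without shScb replicate 2 (edgeR adjusted p = 0.00788; up to 0.801 over the 11 alternatives). COL28A1 had 23 and 24 counts in shScb and 7 and 9 in shTTC8, with no call (log2 change -1.16 ± 0.56 SE, adjusted p = 0.137 by edgeR). In all 18 chains were not tested. They had at most 11 counts in a library, and 4 of them, COL4A6, COL15A1, COL17A1 and COL20A1, had no count in any library.

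**Figure D3:**
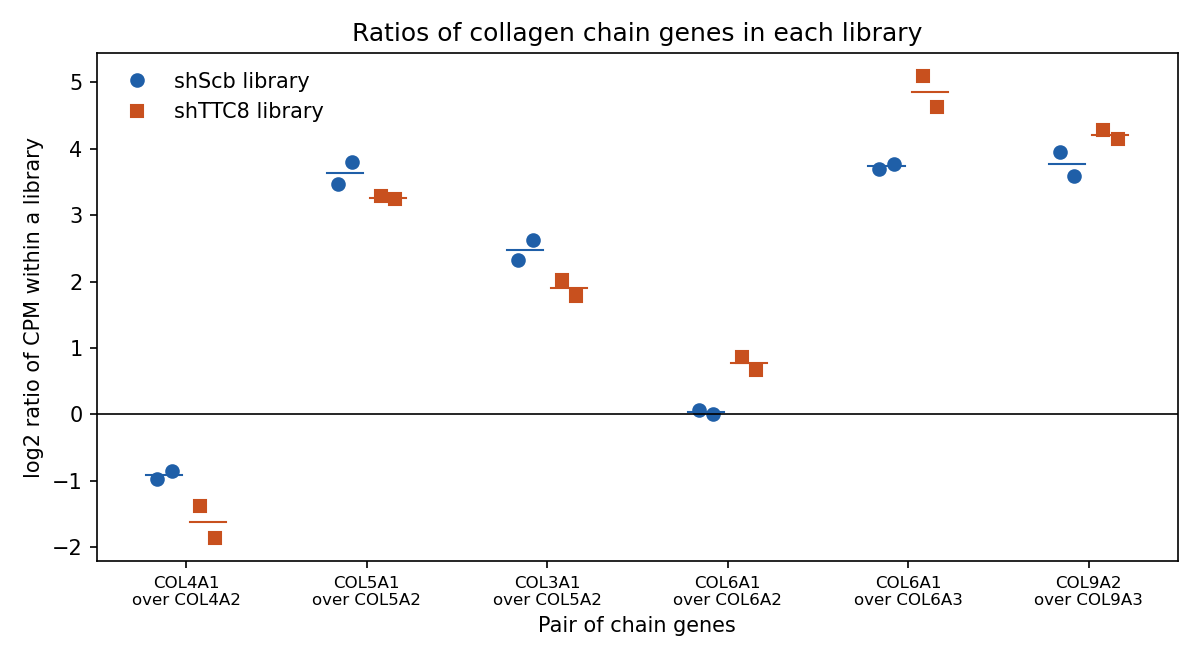
Log2 ratio of the CPM of 2 chain genes within each library, for the 6 of 11 listed pairs in which both genes were tested, with a line at each group's mean of 2 libraries. The shScb and shTTC8 libraries do not overlap for any of the 6 pairs, some of which share a gene. The share over other gene pairs was not computed, and CPM of single genes did not overlap for 65.5% of all tested genes. The ratio of COL6A1 to COL6A2 lies near 0 in shScb and at 0.68 and 0.86 in shTTC8.

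Over the 6 pairs, the difference in mean log2 ratio between shTTC8 and shScb was 1.12 for COL6A1 over COL6A3, 0.74 for COL6A1 over COL6A2 and -0.71 for COL4A1 over COL4A2. It was -0.57 for COL3A1 over COL5A2, 0.44 for COL9A2 over COL9A3 and -0.37 for COL5A1 over COL5A2. No test is given for these ratios, because with 2 libraries against 2 an exact two-sided permutation test cannot go below p = 0.333.

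Collagen biosynthesis depends on a shared set of enzymes and carriers. Of 55 genes that modify, export, trim, cross-link, bind or degrade collagen, 46 were tested, 19 fell and 6 rose (54.3% called, against 31.9% of all genes and 39.2% of protein-coding genes tested). Their median log2 fold change was -0.19. Chain hydroxylation and glycosylation genes gave 4 lower and 3 higher of 14 tested (median -0.11). P4HA1, a catalytic subunit of the prolyl 4-hydroxylase that stabilises the triple helix, changed by -0.91 (SE 0.09) on the log2 scale. P3H2, a prolyl 3-hydroxylase, changed by -0.92 (SE 0.14) and the lysyl hydroxylase gene PLOD1 by -0.30 (SE 0.06). CRTAP, whose protein works in a complex with the prolyl 3-hydroxylase of P3H1, changed by -0.48 (SE 0.06). P3H1 itself, named after its value was seen, rose by 0.29 on the log2 scale (adjusted p = 0.00680 by edgeR), a call lost without either shTTC8 library (edgeR adjusted p = 0.0554 without replicate 1 and 0.0730 without replicate 2; 0.00193 to 0.0730 over the 11 alternatives). PLOD1 lost its call without shTTC8 replicate 2 (edgeR adjusted p = 0.0605; 5.82e-08 to 0.0605 over the 11 alternatives).

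Among chaperone and export genes 4 of 8 fell and none rose (median -0.22), against 39.2% of protein-coding genes called (20.6% lower, 18.6% higher). A difference of this short list from that background was not tested. SEC24D, of the vesicle coat that carries procollagen out of the endoplasmic reticulum, fell from 71.7 ± 3.42 to 41.9 ± 2.18 CPM (SD, n = 2), a log2 change of -0.77. Its coat partner SEC23A changed by -0.39 (SE 0.07) and MIA3, the procollagen cargo receptor, by -0.25 (SE 0.07). The foldase gene FKBP14 changed by -0.29 (SE 0.10). MIA3 was not called without either shTTC8 library (edgeR adjusted p = 0.105 without replicate 1 and 0.105 without replicate 2), with a range from 0.00533 to 0.105 over the 11 alternatives. FKBP14 lost its call without shScb replicate 2 (edgeR adjusted p = 0.171), without shTTC8 replicate 1 (0.141) or 2 (0.129), with library size alone (0.0659) and in DESeq2 (0.0853), with a range from 0.0125 to 0.171.

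Of 7 tested genes for propeptide removal 4 fell and 1 rose (median -0.28), which is 71.4% against 39.2% of protein-coding genes tested. The procollagen N-proteinase gene ADAMTS2 had 1456 and 1529 counts in shScb and 108 and 155 in shTTC8 (log2 fold change -3.12, SE 0.13). Its relatives changed less, ADAMTS3 by -0.19 (SE 0.06) and ADAMTS14 by -0.49 (SE 0.16). ADAMTS3 lost its call without shScb replicate 1 (edgeR adjusted p = 0.0528), shTTC8 replicate 1 (0.192) or shTTC8 replicate 2 (0.156) and with library size alone (0.0779), with a range from 0.00265 to 0.192. ADAMTS14 lost it without shScb replicate 2 (edgeR adjusted p = 0.266), shTTC8 replicate 1 (0.118) or shTTC8 replicate 2 (0.0977), with no low-count filter (0.0559) and in DESeq2 (0.0838), with a range from 0.00569 to 0.266. PCOLCE2, an enhancer of C-propeptide removal, rose from 27.3 ± 0.377 to 37.9 ± 0.746 CPM (SD, n = 2), a log2 change of 0.47 (SE 0.08).

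Cross-linking genes gave 2 lower and 1 higher of 6 (median 0.11), against 39.2% of protein-coding genes called (20.6% lower, 18.6% higher). With only 6 genes, a difference from that background was not tested. LOXL2, a lysyl oxidase known to act on type IV collagen, fell from 32.4 ± 1.06 to 14.04 ± 0.931 CPM (SD, n = 2), a log2 change of -1.21 (SE 0.09). PXDN, the peroxidase that forms the sulfilimine bond of type IV collagen, changed by -0.41 (SE 0.06). LOXL1, better known from elastic fibres, rose from 10.7 ± 0.549 to 17.1 ± 0.710 CPM (SD, n = 2), a log2 change of 0.68 (SE 0.11). LOXL1 overlaps its antisense gene over 335 exonic bases (44.0% of the counts of LOXL1), and LOXL2 overlaps ENTPD4 over 120 (255%).

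Among 7 tested collagen receptor genes 5 fell and 1 rose (median -0.67), which is 85.7% called against 39.2% of protein-coding genes tested. MRC2, an endocytic receptor that clears collagen fragments, fell from 156 ± 8.72 to 89.5 ± 3.30 CPM (SD, n = 2), a log2 change of -0.80 (SE 0.06). DDR2, a receptor tyrosine kinase for fibrillar collagen, changed by -0.40 (SE 0.06). ITGA1 changed by -0.76 (SE 0.13) and ITGB1 by -0.29 (SE 0.06), which encode the subunits of an integrin that binds type IV collagen. ITGB1 lost its call without shTTC8 replicate 1 (edgeR adjusted p = 0.0540; 4.27e-07 to 0.0540 over the 11 alternatives), and ITGA1 shares 475 exonic bases with PELO, which had 233% of its counts. Among collagen-degrading enzymes 4 of 7 were tested and 0 were called by edgeR (median 0.05).

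**Figure D4:**
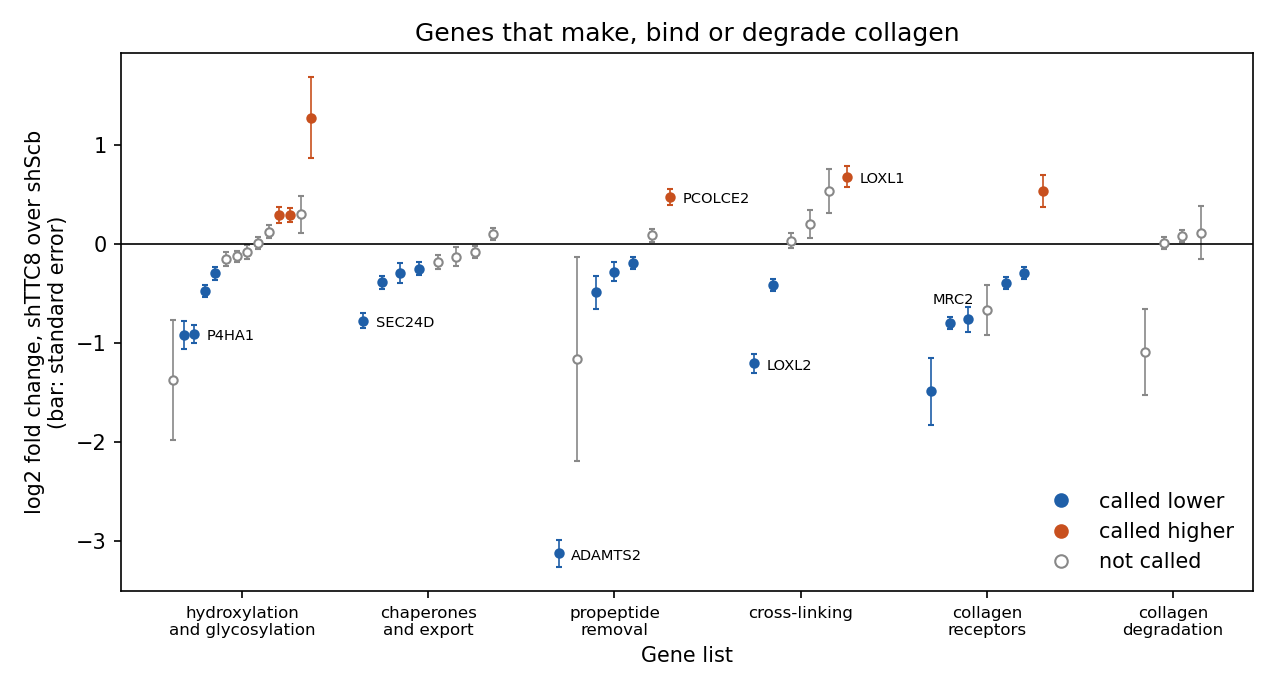
Log2 fold change of shTTC8 over shScb with its standard error for the 46 tested genes that make, bind or degrade collagen, 1 point per gene, in 6 lists. Filled blue points were called lower, filled orange points higher and open grey points were not called; ADAMTS2 lies lowest at -3.12, and no gene of the degradation list was called.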

How the data were processed

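TRIzol RNA and a TruSeq RNA kit were used, per the labels' protocols. The submitters' processing notes name HISAT2 2.2.0 and hg38; for the read counter and annotation, nothing is stated. The authors deposited raw counts, whole numbers without normalization, for each Ensembl gene in 4 sample columns, which were all used. Symbols came from a gene name table (56105 IDs) or GENCODE 29 (486 more); 7661 IDs had none. Positions, lengths and shared exonic bases are those of GENCODE 29 (GRCh38). The counting is not stated to use strand, so reads of overlapping antisense genes cannot be told apart.

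Counts were analysed with edgeR 4.0.16 in R 4.3.3: filterByExpr (minimum count 10), TMM scaling, robust quasi-likelihood F test of shTTC8 against shScb, two-sided, with Benjamini-Hochberg adjustment over 19610 genes at 0.05. A standard error is the absolute log2 change divided by the square root of F. CPM (counts per 1000000) are relative to TMM-scaled library sizes and carry SDs. Chains with a mean of at least 5 CPM are given per library, and up to 4 called genes of each pathway list by smallest p are named. The members, classes and lists were chosen with earlier results of these data known. The alternatives tried were RLE scaling, plain library sizes, no filter, a filter of 1 CPM in 2 libraries, the replicate number as a block, a threshold of 0.01, each library left out, and DESeq2 1.42.0.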

Additional observations from a re-analysis of the deposited data

How the results depend on the processing

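Of the 13 called chains, 10 were called in each of the 11 alternatives, and the others were COL3A1, COL13A1 and COL19A1. At an adjusted p under 0.01 all 3 of these lost their calls. The settings named above for lost calls leave that threshold out for every gene. The count of lower chains ran from 9 (adjusted p under 0.01) to 13. The count of higher chains was 1 with at least 1 CPM in 2 libraries, in DESeq2 and at an adjusted p under 0.01, and ran from 1 to 3 when each library was left out. Higher pathway genes numbered 3 with no low-count filter, 3 at an adjusted p under 0.01, and 2 to 8 when each library was left out. All genes called ranged from 4177 to 6950, and TTC8 from -2.73 to -2.65.

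Chains that were not called changed sign in some settings, and the cause was not tested. COL18A1 was 0.022 with library size alone. When each library was left out, COL18A1 ran from -0.15 to 0.12, COL7A1 from -1.34 to 0.91, COL4A4 from -0.70 to 0.59, COL16A1 from -0.57 to 0.019 and COL11A2 from -0.071 to 1.02.

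Deviations from the group means correlated at 0.032 between same-numbered libraries. This shows no strong pairing by replicate number, but with 2 libraries per group it cannot exclude a weak one. With the replicate number as a block, 6435 genes were called, and among the chains 12 fell and 2 rose, COL27A1 being added (log2 fold change -1.98, edgeR adjusted p = 0.0227). Where a library is left out, the lone library of its group is assumed to vary like the other group. With at least 1 CPM in 2 libraries and in DESeq2, COL2A1, COL4A4, COL11A2 and COL28A1 had no value, nor had COL19A1 under the former. The 18 untested chains had at most 11 counts in a library, and no difference was tested in them.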

Other observations

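Tested genes that start within 1 Mb were counted around each of the 13 called chains. The median log2 fold change of these neighbours was nearer to 0 than that of the chain for 13 of the 13. It had the sign of the chain for 9 of the 11 lower chains and both higher ones, and more neighbours were called in the direction of the chain than against it for 8 of the 11 and for both higher ones. Around the lower chains the share of neighbours called lower ran from 0 to 33.3%, against 16.7% of all genes tested. The 0 is that of COL22A1, which had 1 tested neighbour. Neighbours called higher made up 18.2% around COL9A2 and 33.3% around COL19A1, against 15.2% of all genes tested. COL19A1 had only 6 tested neighbours. Neighbours can include other chains, and the windows of chains that lie close together share genes. Around COL9A2 on chromosome 1, 33 such genes were tested; 6 were higher and 5 lower, with a median log2 fold change of 0.12 against 0.87 for COL9A2. Around COL1A1 on chromosome 17, 37 were tested, 10 lower and 5 higher, with a median of 0.04 against -2.07. Around COL6A2 on chromosome 21, 23 were tested, 4 lower and none higher, with a median of -0.11 against -1.16; COL6A1 is one of the 23. Around COL6A6 on chromosome 3, 15 were tested, 2 lower and 2 higher, with a median of -0.09 against -2.25. Around COL3A1 on chromosome 2, 12 were tested, 4 lower and none higher, with a median of -0.16 against -0.42. These 5 chains were chosen after their values were seen.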
